A study of Caenorhabditis elegans with 96 samples.

Results

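Sperm of the nematode Caenorhabditis elegans are made by a dedicated set of genes, and 9 of them are described here: spe-44, spe-6, spe-4, spe-10, fer-1, spe-9, spe-38, spe-41 and spe-11. They were chosen by name for their roles in making, activating and using sperm, with earlier results of these data known, and were matched by symbol to 9 of the 46904 gene identifiers in the count files. A hermaphrodite makes a limited stock of sperm in the last larval stage, L4, and then turns its germline to oocytes for the rest of its life. Spermatocytes assemble major sperm protein into fibrous bodies on membranous organelles, spermatids bud off after meiosis, and activation makes the spermatids crawl and exposes the proteins used at fertilisation. Spermatids transcribe little, so transcripts of sperm genes are made mainly in spermatocytes.

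RNA was sequenced from whole worms of 85 recombinant inbred advanced intercross lines and of their parents, N2, the laboratory strain, and CB4856, a wild isolate. Each line is a homozygous mosaic of the parental genomes and had 1 library, N2 had 4 and CB4856 had 7. Every strain carried the same control label, was grown from synchronised larvae on Escherichia coli HT115, and was harvested at L4, with no drug or RNA interference target named. Sample titles place the libraries in 7 batches, numbered 2, 3, 4, 6, 7, 8 and 9, each holding 1 CB4856 library and 7 to 19 lines; batches 3, 6, 8 and 9 also hold 1 N2 library. No line has a replicate, and apart from the batch nothing says that the libraries of a parent came from separate cultures, so p-values measure the spread between these libraries. In RNA from whole animals, fewer cells of a type and less RNA per cell cannot be told apart.

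Gene counts per library lay between 22069702 and 24001627, so depth was even, and levels are given as CPM, the counts of a gene scaled to a common library total, unless another unit is named. A library of this depth gives 3 counts, the limit that a count of 0 allows, at well under 1 CPM. Among the checks on tissue, summed transcripts of the 31 listed genes for major sperm proteins and of 13 oocyte and eggshell genes were both present in every group. Of the 31, 1 was at 0 in all N2 libraries. Summed major sperm protein transcripts lay between 203 and 1818 CPM in the lines, between 614 and 1756 CPM in N2 and between 116 and 461 CPM in CB4856. The summed oocyte and eggshell genes gave 6519 to 16809 CPM in the lines, 10377 to 15740 CPM in N2 and 14633 to 16960 CPM in CB4856. A pair of lines carried transcripts of male neurons: 7 such genes summed to 22 CPM in QX501 and to 8.65 CPM in QX505, against at most 2.86 CPM and a median of 1.24 CPM in the other 94 libraries, and all 7 had counts in both lines. Of the 7, 1 was at 0 in all N2 libraries, and 1 in all CB4856 libraries. Values without QX501 and QX505 are given beside the main results on the lines.

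On WBcel235, all 9 genes are protein coding, and 5 of them lie on chromosome I. The transcriptional regulator spe-44 (WBGene00007732) lies on the minus strand of chromosome IV from 12452063 to 12454215. The kinase gene spe-6 (WBGene00004960) is on the plus strand of chromosome III from 11505488 to 11508930, and spe-41 (WBGene00004976) on the minus strand of III from 3439011 to 3444210. Chromosome V holds spe-10 (WBGene00004964) on the plus strand from 10384250 to 10385740. The genes of chromosome I are spe-11 (WBGene00004965, minus strand, 5330578 to 5332169), spe-4 (WBGene00004958, plus strand, 7454660 to 7456953), fer-1 (WBGene00001414, minus strand, 8623012 to 8631202), spe-38 (WBGene00013121, minus strand, 10964472 to 10966382) and spe-9 (WBGene00004963, minus strand, 11582743 to 11586069). Exons of fer-1 share 252 bases with 2 genes on the opposite strand, those of spe-38 share 58 bases with impt-1 and those of spe-9 share 8 bases with C17D12.5. The libraries carry no strand, so where the 2 strands overlap the source of a read cannot be told, and reads on more than 1 gene were left out of the counts.

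Levels differed among the genes when set per kilobase of exon. In the lines, spe-11 had the highest mean level, 21.5 ± 12.6 CPM per kilobase (SD, n = 85), followed by spe-44 at 13.7 ± 2.39 CPM per kilobase, and spe-11 was above spe-44 in 59 of the 85 lines. The next genes, spe-6 at 6.77, spe-4 at 4.43, spe-41 at 3.76 and spe-10 at 2.14 CPM per kilobase, came in the same order in N2 and in CB4856. The lowest were fer-1 at 0.913, spe-38 at 0.766 and spe-9 at 0.735 CPM per kilobase, and the ranges of every neighbouring pair in this order overlapped among the lines. In N2 the order also began with spe-11, at 32.2 ± 17.3 CPM per kilobase (SD, n = 4), ahead of spe-44 at 14.3 ± 1.07 CPM per kilobase. In CB4856 the top places were exchanged, with spe-44 at 13.8 ± 0.728 CPM per kilobase (SD, n = 7) and spe-11 at 7.86 ± 3.43 CPM per kilobase. All 7 CB4856 libraries had spe-44 above spe-11, against 1 of the 4 N2 libraries.

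**Figure D1:**
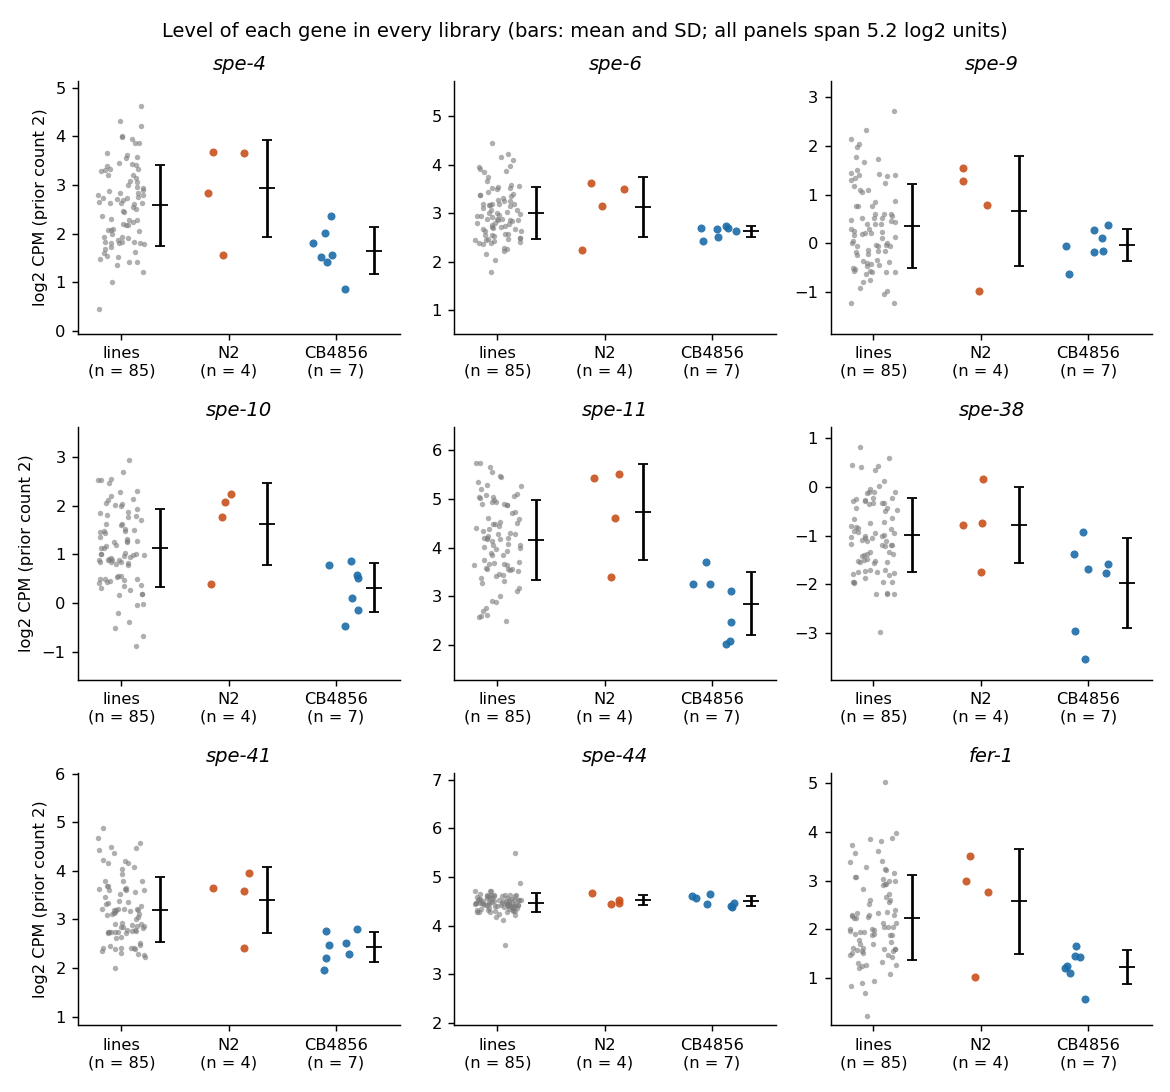
Levels of the 9 spermatogenesis genes in log2 CPM (prior count 2), 1 panel per gene, with lines at the left, N2 in the middle and CB4856 at the right. Each point is 1 library and bars show mean and SD; for 8 genes the lines cover a wide range, while spe-44 stays close to its median of 21.7 CPM in nearly all lines.

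Between the parents, 6 of the 9 genes were higher in N2, and none was lower. The largest difference was that of spe-11, and spe-44 was near equal in the strains. In this comparison 8 genes passed the filter on low counts, all except spe-38. Over all 14858 genes tested, 33.9% were called, 17.9% as higher and 16.0% as lower in N2, and the median log2 fold change was 0.03, against 1.24 over the 8 genes. All fold changes are of N2 over CB4856 on the log2 scale with a standard error, and adjusted p-values are from the two-sided quasi-likelihood test of edgeR, adjusted after Benjamini and Hochberg over all genes tested.

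The gene at the head of the pathway, spe-44, encodes a SAND-domain regulator that switches on many sperm genes in developing spermatocytes. It had 25.8, 21.8, 22.4 and 23.3 CPM in the N2 libraries of batches 3, 6, 8 and 9, against a lowest value of 21.5, a median of 22 and a highest of 24.9 CPM in CB4856. The groups overlapped, with 1 N2 library above the CB4856 range. The log2 fold change was 0.01 ± 0.08 (edgeR, adjusted p = 0.911), and its sign turned under other scalings.

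Of the genes that act in spermatocytes, spe-6 encodes a casein kinase 1-like protein needed to assemble fibrous bodies and to hold spermatids inactive. It had 9.01, 12.1, 11.7 and 4.71 CPM in N2 in the same batch order, against 5.24 to 6.77 CPM with a median of 6.08 CPM in CB4856. The N2 libraries of batches 3, 6 and 8 lay above all of CB4856, and that of batch 9 lay below all of it. The log2 fold change was 0.58 ± 0.21 (edgeR, adjusted p = 0.0466), close to the threshold of 0.05, and the call was lost in 14 of 17 alternative analyses, with adjusted p-values between 0.0511 and 0.866.

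The presenilin-family protein of spe-4 and the palmitoyltransferase-like protein of spe-10 both act in the fibrous body-membranous organelles. In N2, spe-4 had 7.24, 12.4, 13.2 and 2.89 CPM, against 1.71 to 4.85 CPM with a median of 2.91 CPM in CB4856. For spe-10, the N2 values were 3.37, 4.62, 4.32 and 1.23 CPM, against 0.625 to 1.78 CPM with a median of 1.31 CPM in CB4856. For both genes 3 N2 libraries were above all of CB4856, and the N2 library of batch 9 fell within the CB4856 range. Their log2 fold changes were near equal, 1.45 ± 0.36 for spe-4 (edgeR, adjusted p = 0.0103) and 1.44 ± 0.35 for spe-10 (edgeR, adjusted p = 0.00904).

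The ferlin of fer-1 is needed for membranous organelles to fuse with the plasma membrane when spermatids activate. It had 6.86, 11.2, 8.21 and 1.95 CPM in N2, against 1.37 to 2.91 CPM with a median of 2.39 CPM in CB4856. Again the N2 library of batch 9 lay within the CB4856 range and the other 3 above it. The log2 fold change was 1.58 ± 0.36 (edgeR, adjusted p = 0.00598).

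Proteins of the sperm surface are needed for fertilisation, and 3 of them were measured: spe-9 with its epidermal growth factor-like repeats, the multi-pass membrane protein spe-38, and spe-41, a TRP-family calcium channel also known as trp-3. Of these, spe-41 was the most abundant, with 12.2, 15.3, 12.9 and 5.31 CPM in N2, against 3.79 to 6.81 CPM with a median of 5.11 CPM in CB4856. Its N2 libraries of batches 3, 6 and 8 were above all of CB4856 and that of batch 9 was within the CB4856 range, and the log2 fold change was 1.05 ± 0.25 (edgeR, adjusted p = 0.00784). For spe-9, N2 had 1.68, 2.82, 2.44 and 0.425 CPM, against 0.549 to 1.24 CPM with a median of 0.844 CPM in CB4856, and its log2 fold change of 0.98 ± 0.39 missed the threshold (edgeR, adjusted p = 0.0716). The batch 9 library of N2 was the lowest of all 11 parental libraries for spe-9. The least abundant gene, spe-38, had 0.505, 0.513, 1.07 and 0.212 CPM in N2, against 0 to 0.422 CPM with a median of 0.217 CPM in CB4856, at most 10 counts in any CB4856 library. Again the N2 libraries of batches 3, 6 and 8 were above that range. With no filter, spe-38 had a log2 fold change of 1.38 ± 0.59 (edgeR, adjusted p = 0.119).

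The gene spe-11 encodes a protein that sperm carry into the oocyte and that the embryo needs for its eggshell and first division. It had 24.9, 45.8, 44.6 and 10.5 CPM in N2, against 3.93 to 13.3 CPM with a median of 8.18 CPM in CB4856. The N2 libraries of batches 3, 6 and 8 lay above every CB4856 library and that of batch 9 lay within their range. The log2 fold change was 1.99 ± 0.40 (edgeR, adjusted p = 0.00384), and among the 9 genes only spe-11 remained called with batch as a replicate block, at 1.73 (edgeR, adjusted p = 0.0467). The same held with component 1 of the other genes over the lines as a covariate, where spe-11 was at 0.92 (edgeR, adjusted p = 0.0254). Only the 9 genes were left out of that component, and it had r = 0.928 over the lines with their mean. Such a covariate takes up variation of the genes themselves, so that fit cannot show how firm a difference is.

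The N2 library of batch 9 weighed on these values. Within batches, the N2 library exceeded the CB4856 library for 9 of 9 genes in batch 3, for 8 of 9 in batches 6 and 8, and for 4 of 9 in batch 9. The median log2 difference over the 9 genes was 1.99 for batch 3, 1.28 for batch 6, 1.22 for batch 8 and, on the other side of 0, -0.08 for batch 9. Without the N2 library of batch 9, 8 of the 9 genes were called, spe-9 (1.31, adjusted p = 0.00143, edgeR) and spe-38 (1.68, adjusted p = 0.0358, edgeR) among them. Over all genes, 6544 of 15157 were called in that fit. With batch as a replicate block, 2212 of all 14858 genes tested were called, and the calls of 5 of the 9 genes were lost. The log2 fold changes of these 5 genes were 1.46 for fer-1, 1.27 for spe-4, 1.26 for spe-10, 0.91 for spe-41 and 0.50 for spe-6. Their adjusted p-values were from 0.0628 to 0.192 by edgeR. With the component 1 covariate their log2 fold changes were 0.48 for fer-1, 0.39 for spe-4, 0.52 for spe-10, 0.40 for spe-41 and 0.05 for spe-6. In the N2 library of batch 9 the summed major sperm protein transcripts, 614 CPM, were the lowest of N2. They were still above the CB4856 range of 116 to 461 CPM. That sum includes msp-19, msp-53 and msp-64, which averaged up to 95.1 CPM in N2 and up to 0.218 CPM in CB4856. The gap was not tested without them. In this library the summed sperm chromatin genes, 69.8 CPM, lay within the CB4856 range of 35.2 to 91.7 CPM. Sums for sperm-egg interaction and for spermatocytes also lay within their CB4856 ranges. That for sperm activation, 144.7 CPM, was above the CB4856 range of 119.2 to 136.7 CPM. The summed oocyte genes of this library, 15740 CPM, were the highest of N2 and within the CB4856 range.

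**Figure D2:**
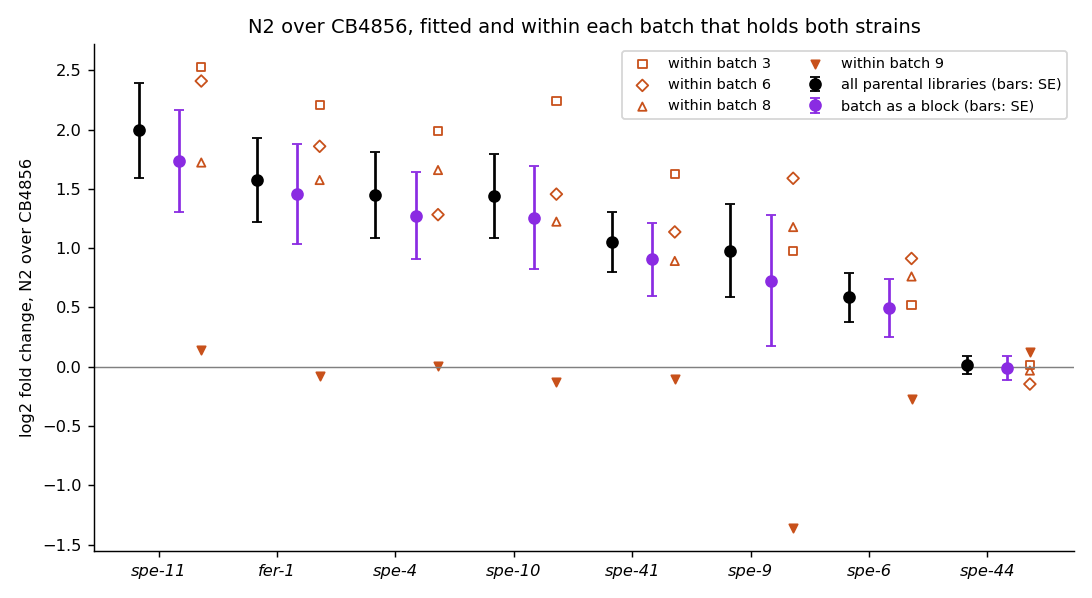
Log2 fold change of N2 over CB4856 for the 8 genes tested, with standard errors, from the comparison without and with batch as a block, and the difference within each of batches 3, 6, 8 and 9. Differences in batches 3, 6 and 8 lie mostly above 1 for all genes but spe-44 and spe-6, and those of batch 9 lie between -0.27 and 0.14 except for spe-9 at -1.36.

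Other genes of spermatogenesis were described from lists drawn up by role, and no test of a list as a whole was run. Over all genes tested, 17.9% were called as higher and 16.0% as lower in N2. Counts of all lists, here and in the next paragraph, come from the fit without batch as a block. They were not made with the block, under which most calls of the 9 genes were lost. For sperm activation, 8 of 11 tested genes were higher in N2 and none lower, with a median log2 fold change of 1.44; they included spe-12 (1.91 ± 0.32, adjusted p = 0.00117, edgeR) and spe-8 (1.81 ± 0.42, adjusted p = 0.00701, edgeR), which act in the signal that starts activation. For sperm-egg interaction, 4 of 5 were higher and none lower, with a median of 1.39, among them spe-42 at 1.90 ± 0.50. For the organelles, meiosis and cytoskeleton of spermatocytes, 6 of 9 were higher and 1 lower, with a median of 1.32, and those higher included spe-26 at 1.54 ± 0.42 and spe-18 at 1.53 ± 0.40. All 6 genes of sperm chromatin were higher, with a median of 1.52, led by htas-1, a histone H2A variant, at 1.83 ± 0.36. Of 27 tested major sperm protein genes, 25 were higher and none lower, with a median of 1.84. The genes msp-19, msp-53 and msp-64 averaged 32.6, 19.6 and 95.1 CPM in N2 (SD 13.5, 9.04 and 39.6, n = 4), against 0.0181, 0.0121 and 0.218 CPM in CB4856 (SD 0.0226, 0.0206 and 0.141, n = 7). For msp-19, msp-53 and msp-64 the log2 fold changes were thus 10.4, 10.1 and 8.70, far above the list median of 1.84. Near-identical copies exist in this family, so the assignment of reads between its members is uncertain. Reads of both strains were counted on the build WBcel235. Whether reads of CB4856 map to it as well as those of N2 was not tested, for these or any other genes. These genes also belong to the list whose sum and mean are used elsewhere as a measure of sperm transcripts.

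Regulators of germline sex set whether germ cells become sperm or oocytes, and they were listed together with regulators of spermatogenesis. Of 11 tested, none was higher in N2 and 1, tra-2, was lower at -0.45 ± 0.11 (edgeR, adjusted p = 0.00833), with a list median of -0.06. The membrane receptor of tra-2 promotes female fate, and it averaged 71.1 ± 13.3 CPM in N2 (SD, n = 4) and 94.6 ± 6.89 CPM in CB4856 (SD, n = 7). Of the 13 oocyte and eggshell genes, 10 were lower in N2 and none higher, with a median of -0.45. The largest falls were those of lin-41, a regulator of oocyte growth, at -0.86 ± 0.13 (edgeR, adjusted p = 0.000470) and of puf-5, an RNA-binding protein of oocytes, at -0.59 ± 0.13 (edgeR, adjusted p = 0.00453). Of 8 genes used in the germline of both sexes, 4 were lower in N2 and none higher, with a median of -0.24, including htp-3 of the meiotic chromosome axis at -0.54 ± 0.09. Of 8 moulting genes, 2 were higher in N2, and of 6 yolk genes 1, vit-3, was higher. The part of these other groups in the differences of the 9 genes was not tested.

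Among the lines, 8 of the 9 genes varied widely and spe-44 varied little. The standard deviation of log2 CPM over the 85 lines was 0.87 for fer-1 and spe-9, 0.84 for spe-4, 0.83 for spe-11, 0.81 for spe-10, 0.77 for spe-38, 0.66 for spe-41 and 0.54 for spe-6, against 0.20 for spe-44. Lines had spe-11 from 5.30 to 56.1 CPM with a median of 17.8, spe-4 from 1.31 to 26.3 CPM with a median of 5.92, and fer-1 from 1.06 to 34.8 CPM with a median of 4.18. For spe-6 the lines ranged from 3.45 to 23.1 CPM with a median of 7.51, for spe-41 from 3.96 to 31.1 CPM with a median of 8.88 and for spe-10 from 0.463 to 8.08 CPM with a median of 1.98. The least abundant, spe-9 and spe-38, ranged from 0.337 to 7.31 CPM and from 0.0421 to 1.80 CPM, the last being 1 to 42 counts. Most lines lay within the range of the 11 parental libraries, 81 of 85 for spe-11, 76 for spe-4 and fer-1, and 72 for spe-41, of which the other 13 were all above the highest parental library.

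The spread among lines was set beside the spread among parental libraries of 1 strain. For spe-11 the variance among lines was 1.13 times that within the parental strains, for spe-38 it was 0.752 times, and for the other 6 of the wide-ranging genes it was 1.45 to 2.17 times. For spe-44, with its narrow spread, the ratio was 3.80, and 35 lines lay below the lowest parental library and 3 above the highest. Lines had spe-44 from 13.5 to 50.5 CPM with a median of 21.7. Leaving out QX501 and QX505 gave ratios of 1.08 for spe-11, 0.707 for spe-38 and 1.33 to 1.95 for the other 6. The N2 library of batch 9 carried much of the spread within parents: without it the ratio was 1.80 for spe-11, 0.816 for spe-38, 3.05 for spe-4, 3.20 for spe-10, 5.67 for spe-41, 6.01 for fer-1, 6.31 for spe-9 and 12.5 for spe-6, and 3.39 for spe-44. These ratios describe single libraries per line and carry no test.

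Single lines stood out. QX501, with the most male neuron transcripts, was the highest line for spe-4, spe-6, spe-10, spe-38, spe-41 and fer-1, and its 34.8 CPM of fer-1 compared with 16.3 CPM in the next line, QX571. QX505, the other line with male neuron transcripts, had 16.1 CPM of fer-1 and 20.9 CPM of spe-41. Without both, the standard deviation of fer-1 over 83 lines was 0.80, and the highest lines became QX567 and QX571, neither with raised male neuron transcripts at 1.33 and 1.73 CPM. QX571 was the highest line for spe-44 at 50.5 CPM and for spe-9 at 7.31 CPM, and had the lowest summed oocyte and eggshell transcripts of all lines, 6519 CPM. QX567 was the highest for spe-11 at 56.1 CPM, with 20.7 CPM of spe-44, near the median of the lines. The lowest spe-44, 13.5 CPM, was in QX519, whose spe-11 was 32.9 CPM. QX497 had the lowest values for spe-4, spe-6, spe-10, spe-38 and spe-41, with 23 CPM of spe-44. Levels of spe-11 above its median thus occurred in lines with high, middle and low spe-44.

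As a group, the lines were not shown to depart from the midpoint of the parents for any of the 9 genes. Log2 differences of the lines over the midpoint were between -0.04 ± 0.07 for spe-44 and 0.52 ± 0.32 for spe-38, with 0.49 ± 0.31 for fer-1 and 0.43 ± 0.27 for spe-11. Adjusted p-values were from 0.614 to 0.786 by edgeR, none of the 9 had an unadjusted p under 0.05, and 0.0364% of 16500 genes were called. At an unadjusted p under 0.05 there were 1264 genes. The fit takes the log of the mean over lines but averages the logs of the parents, which by itself can place the difference above 0.

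The lines of different batches differed in 8 of the 9 genes, a share to be read against 79.5% of 16030 genes called in the same edgeR test across the 7 batches. Adjusted p-values by edgeR were 3.04e-05 for spe-11, 3.65e-05 for spe-9, 7.42e-05 for spe-10, 0.000308 for spe-4, 0.000657 for spe-6, 0.00191 for spe-41, 0.00530 for spe-38 and 0.0132 for fer-1. For spe-44 the adjusted p was 0.112. By mean log2 CPM, all 8 genes were lowest in batch 2 and highest in batch 7. Without QX501 and QX505, 5 of the 8 were lowest in batch 2 and 3 in batch 9, where the mean log2 CPM of the lines was 1.52 for fer-1, -1.55 for spe-38 and 2.72 for spe-41, against 1.63, -1.47 and 2.78 in batch 2, and all 8 were highest in batch 7. For spe-11 the lines averaged 9.41 ± 3.78 CPM in batch 2 (SD, n = 7), 13.8 ± 5.16 CPM in batch 3 (n = 10), 20.2 ± 12.3 CPM in batch 4 (n = 11), 25 ± 13.3 CPM in batch 6 (n = 13), 28.9 ± 9.98 CPM in batch 7 (n = 11), 26.4 ± 11.9 CPM in batch 8 (n = 19) and 15.4 ± 12 CPM in batch 9 (n = 14). The gap between the batches at the ends was 1.56 on the log2 scale for spe-11, 1.54 for spe-9, 1.5 for spe-10 and 0.91 for spe-38, against 0.19 for spe-44, which was highest in batch 7 too but lowest in batch 8. Between 21.9% and 35.9% of the variance of the 8 genes over lines lay between batches. No line was in more than 1 batch, so the lines of a batch and the batch itself cannot be told apart.

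The batch result held for 8 genes without QX501 and QX505, where 12632 of all 15998 genes were called. For fer-1 it was lost without the lines of batch 2 (adjusted p = 0.0597, edgeR), batch 3 (0.0754) or batch 7 (0.0526), and for spe-41 without those of batch 7 (0.0604). Without the lines of batch 9, spe-44 passed as well (adjusted p = 0.0199, edgeR). With component 1 of the 2000 most variable other genes in the model, the 4 genes called were spe-41, fer-1, spe-4 and spe-9, and spe-11 was not (adjusted p = 0.445, edgeR). Over all genes, 9308 of 16030 were called in that fit.

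**Figure D3:**
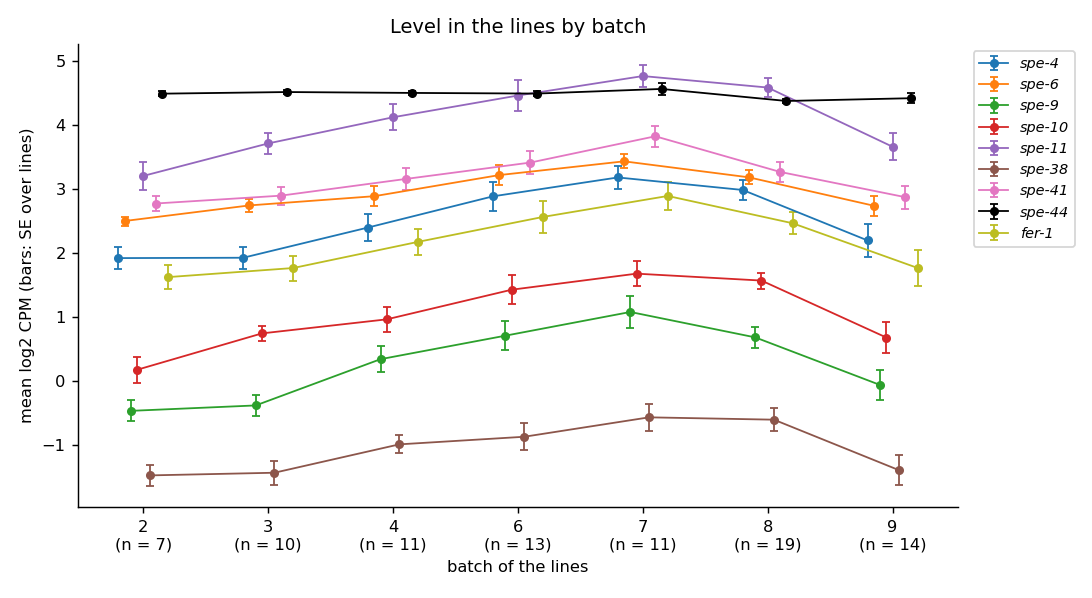
Mean log2 CPM of the lines of each batch with standard errors, for the 9 genes; thin lines join the means of 1 gene and imply no order of batches. With all 85 lines, batch 2 is lowest and batch 7 highest for 8 genes, while without QX501 batch 9 is lowest for fer-1, spe-38 and spe-41; the means of spe-44 stay within 0.19 of each other.

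Across the 85 lines, 8 of the genes varied together and spe-44 was not shown to vary with them, a division made after the values were seen. Correlations of log2 CPM were computed for all 36 pairs, with permutation p-values adjusted over the 36. Here and below, lines were permuted without regard to batch, so these p-values take no account of differences between batches. In the 28 pairs without spe-44, Pearson's r was between 0.765 and 0.941 with a median of 0.860, and Spearman's rho between 0.707 and 0.944 with a median of 0.848. Each had a permutation p of 1e-05, the smallest that 100000 permutations can give, and an adjusted p of 1.29e-05. The closest pair was spe-10 and spe-11, with r = 0.941 and rho = 0.944, and the least close was spe-6 and spe-38, with r = 0.765 and rho = 0.707. Leaving out the 2 lines farthest from the median of the first gene gave r between 0.730 and 0.938, and leaving out QX501 and QX505 gave r between 0.742 and 0.938 with a median of 0.845. With batch means removed, r was between 0.711 and 0.920, and within single batches the lowest value of any pair was -0.247.

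In the 8 pairs with spe-44, r was between -0.0833 and 0.109 with a median of 0.0262, and rho between -0.171 and -0.0557 with a median of -0.121. Permutation p-values were 0.325 to 0.970 for r, 0.403 to 0.970 after adjustment, and 0.118 to 0.615 for rho. A few lines with high spe-44 shaped these values. Without QX501 and QX505 the median r was -0.0561, and without QX501, QX505 and QX571, a choice made after their values were seen, it was -0.241, with all 8 between -0.300 and -0.156. With batch means removed the median was 0.0319, and within batches r of these pairs reached -0.716 and 0.779.

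**Figure D4:**
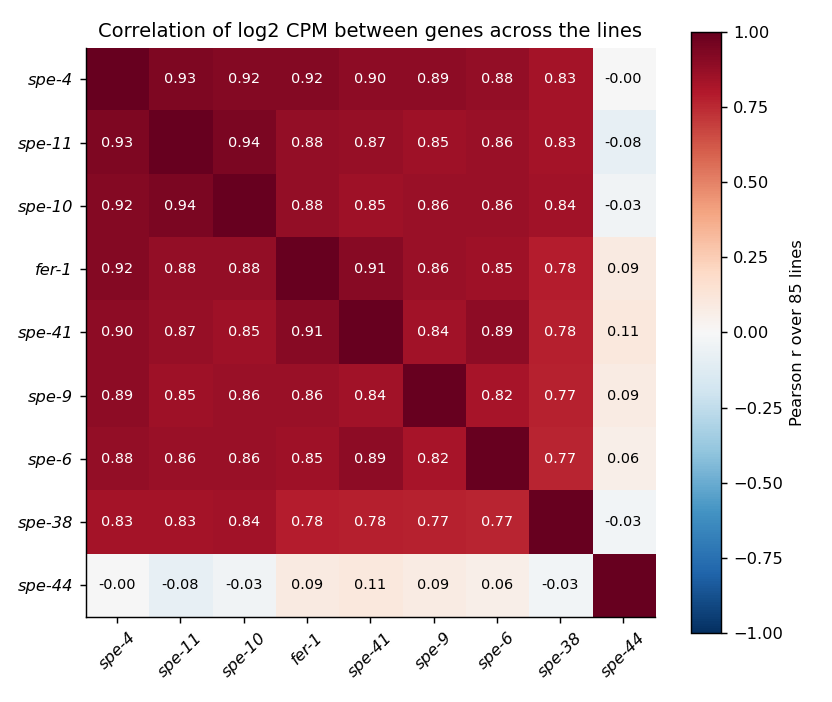
Pearson's r of log2 CPM over the 85 lines for each pair of the 9 genes. Pairs among 8 genes lie between 0.77 and 0.94, and pairs with spe-44 between -0.08 and 0.11.

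The 8 genes followed the transcripts of major sperm proteins, the main cargo of the fibrous bodies. Their r with the mean log2 CPM of these genes over the lines was highest for spe-11 at 0.90 (rho = 0.895, 0.861 with batch means removed) and lowest for spe-9 at 0.713 (rho = 0.736, 0.613 with batch means removed). Without the 2 lines farthest from the median of the list, r was between 0.724 and 0.890, and without QX501 and QX505 it was between 0.699 and 0.895. Each had a permutation p of 1e-05 and an adjusted p of 1.61e-05 over 90 relations of 9 genes with 10 marker lists. For spe-44 r was -0.0786 (permutation p = 0.479) and rho was -0.0795 (permutation p = 0.470). Per log2 unit of the major sperm protein mean, spe-11 changed by 0.88 log2 units, spe-4 by 0.83, spe-10 by 0.81, fer-1 by 0.80, spe-9 by 0.74, spe-38 by 0.71, spe-41 by 0.63 and spe-6 by 0.53, while spe-44 had a slope of -0.02. Of the 8, spe-6 thus had the shallowest slope and spe-11 the steepest. The sperm surface genes spe-9, spe-38 and spe-41 had shallower slopes than the organelle genes spe-4 and spe-10. But spe-6, needed to assemble fibrous bodies, was shallower than all of these, so the slopes did not divide the genes by role. A prior count of 2 also flattens slopes at low counts, as for spe-38 with 1 to 42 counts in the lines.

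The same 8 genes had negative correlations with oocyte and eggshell transcripts. With the mean of the 13 oocyte and eggshell genes, r lay between -0.728 for fer-1 and -0.803 for spe-11, with rho from -0.803 for spe-6 to -0.904 for spe-11, each with a permutation p of 1e-05. With batch means removed the values were -0.671 to -0.759, but within a single batch spe-6 reached 0.294, spe-38 0.290 and spe-10 0.181. Leaving out QX501 and QX505, r of the 8 lay between -0.761 and -0.812. For spe-44 Pearson's r was 0.0763 (permutation p = 0.461) but rho was 0.324 (permutation p = 0.00251, 0.00327 adjusted over the 90), and r without the 2 lines farthest from the median of the list was 0.340. With the 8 genes used in the germline of both sexes, the 8 sperm genes also had negative r, from -0.527 for fer-1 to -0.638 for spe-11. Without QX501 and QX505 these values were -0.534 and -0.634. With that germline list spe-44 had r = 0.172 (permutation p = 0.112), rho = 0.377 (permutation p = 0.00035, 0.0005 adjusted) and r = 0.415 without the 2 farthest lines. With batch means removed, r of spe-44 was 0.0732 with the oocyte list and 0.112 with the germline list, and rho was not computed that way. Within single batches r of spe-44 with the oocyte list was between -0.723 and 0.785, and with the germline list between -0.746 and 0.787, above 0 in 5 of 7 batches for each. For the 8 genes, intestine genes gave r from 0.390 for spe-38 to 0.618 for spe-41, and body wall muscle genes from 0.449 for spe-6 to 0.565 for spe-10. Adult epidermis genes gave r from 0.673 for spe-41 to 0.825 for spe-11, moulting genes gave r from 0.498 for spe-6 to 0.587 for fer-1, and yolk genes r from -0.302 for spe-41 to -0.509 for spe-10. Male neuron genes gave r from 0.280 for spe-9 to 0.416 for fer-1, and from 0.114 to 0.283 without the 2 lines farthest from the median of that list. With the adult epidermis genes spe-44 had r = -0.243 (permutation p = 0.0217, adjusted p = 0.0247) and rho = -0.359 (permutation p = 0.00078, adjusted p = 0.00108). Without QX501 and QX505 the 8 genes had r from 0.726 to 0.858 with the adult epidermis list, 0.567 to 0.688 with the moulting list and -0.288 to -0.508 with the yolk list. All these values come from the same libraries, whose transcripts share 1 total. The mean of the 9 genes had r = 0.928 (rho = 0.937, permutation p = 1e-05) with component 1 of the other genes of the lines, 0.908 with batch means removed, and 0.950 without QX501 and QX505.

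**Figure D5:**
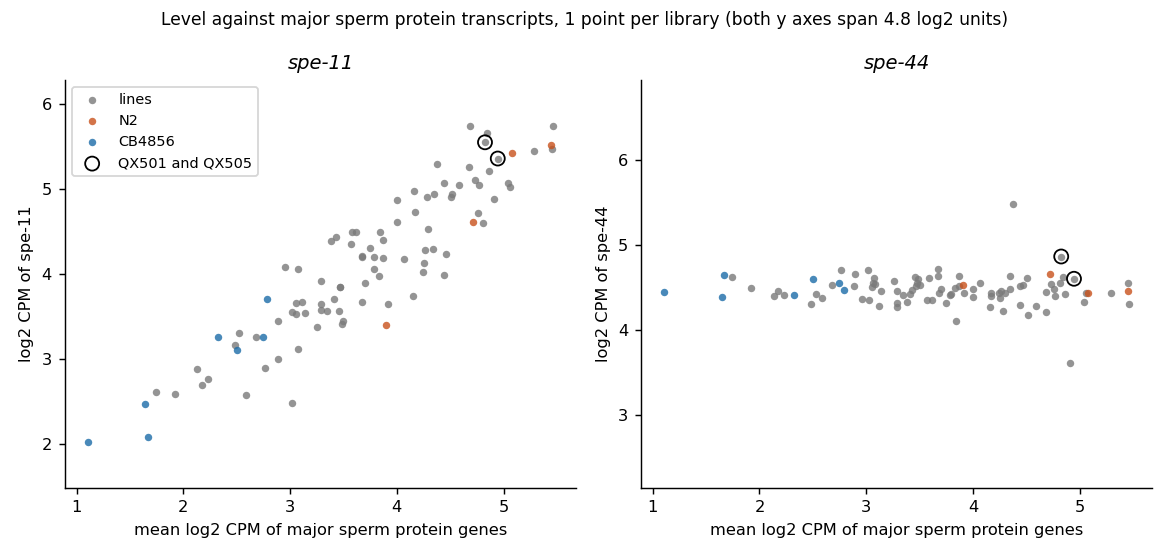
Log2 CPM of spe-11 (left) and of spe-44 (right) against the mean log2 CPM of the major sperm protein genes, 1 point per library for lines, N2 and CB4856, with QX501 and QX505 circled. Over the lines, points of spe-11 rise along the axis with r = 0.90, and those of spe-44 stay level with r = -0.0786.

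An order of the genes was taken from principal components of their scaled levels over the lines. Component 1 held 78% of the variance, with near-equal loadings of 0.33 to 0.37 for the 8 genes and 0.01 for spe-44. Component 2 held 11.6% and was nearly spe-44 alone, with a loading of 0.98 for spe-44 and between -0.12 and 0.10 for the other genes. Along it the order was spe-44, spe-41, fer-1, spe-9, spe-6, spe-4, spe-10, spe-38 and spe-11. The order had a rank correlation of 0.917 with that found after batch means were removed, of 0.917 to 1 with those found when the lines of 1 batch were left out, and of 0.5 with that in the 11 parental libraries. Component 2 was signed so that spe-44 is positive, and genes were ordered from the highest loading. As this component is nearly spe-44 alone, its first place in every setting follows from the method and is no result. That fixed place raises the rank correlations. Over the other 8 genes alone the rank correlation was 0.881 with batch means removed, 0.881 to 1 with 1 batch left out and 0.286 in the parental libraries. It was 0.983 over the 9 genes and 0.976 over the 8 without QX501 and QX505. The other loadings are small and close together, so the order of the 8 genes among themselves rests on little. No sample carries a time within L4, so whether this order is one of time was not tested.

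Many genes had patterns like those of the 8. Among 11316 other genes with a mean log2 CPM of at least 1 over the lines, 787 had r over 0.8 with the mean of the 9 genes, and the closest were kel-10 at 0.986, F42G4.2 at 0.981, B0205.10 at 0.980, pei-1 at 0.979 and F58D2.2 at 0.979. The closest gene to spe-11 was C32E12.1 at 0.986, to spe-4 B0205.10 at 0.965, to spe-10 K11C4.1 at 0.954, to fer-1 alg-3 at 0.949 and to spe-41 alg-4 at 0.938. For spe-6 it was ZK1128.3 at 0.923, for spe-9 C35A5.4 at 0.919 and for spe-38 F54C9.14 at 0.891. Each of these 8 genes had between 647 and 798 others with r over 0.8. For spe-44 there was none, and its closest gene was WBGene00020028 on chromosome II, which has no symbol in the annotation used, at 0.760. Without QX501 and QX505 the closest gene was another one for spe-4 (acdh-5, 0.962), spe-9 (C09D4.3, 0.910) and spe-44 (lir-2, 0.777), and 929 genes had r over 0.8 with the mean of the 9.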

How the data were processed

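Whole L4 worms were sequenced on a BGISEQ-500, per the labels' protocols. The deposited values are unnormalised read counts per gene, in the layout of STAR's gene counting. Per the submitters' processing notes, FastQC, STAR 2.73a, DESeq2 and the genome build WBcel235 were named, with no settings. The 2 strand columns were near equal (ratio 0.957 to 1.04), so the unstranded column was used. Reads on overlapping genes or mapping to several places are outside it, and reads that name no gene, a mean of 7.43% per library, were left out of library sizes. Symbols and positions come from the Ensembl annotation of WBcel235, which held 46817 of the 46904 identifiers.

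The test of counts was that of edgeR 4.0.16, run with R 4.3.3 (filterByExpr, TMM, robust quasi-likelihood test, two-sided, Benjamini-Hochberg over all genes tested, threshold 0.05), and the code was tested on simulated data. Parents were compared in their 11 libraries, lines with the parental midpoint in all 96, and batches among the 85 lines. The standard error of a fold change was derived from it and its test statistic. CPM values are counts scaled to a common total of gene counts, and log2 CPM used a prior count of 2. Floors of 3 counts cover counting error only. Batch numbers in the titles pair parental libraries: across genes, deviations of the paired libraries from their strain means correlated at 0.298 for batch 3, 0.0819 for batch 6, 0.569 for batch 8 and, lastly, 0.148 for batch 9.

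Genes, lists and tests were chosen with earlier results of these data known. The text names all 9 genes, up to 3 called genes of each list by size of fold change (some are not reported here), and the genes most like each of the 9 among the lines. Alternatives were RLE scaling, DESeq2 1.42.0, other filters, batch as a replicate block, component 1 as a covariate, and leaving out libraries or batches. Leaving out QX501, QX505 and QX571 was added after the data were seen, as was the ratio of variances without the N2 library of batch 9. Promoters and sequences were not analysed here.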

Additional observations from a re-analysis of the deposited data

How the results depend on the processing

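Between N2 and CB4856, the count of called genes among the 9 was 6, and 5 to 8 when 1 library was left out. With batch as a replicate block it was 1, as it was with component 1 as a covariate. Over all genes the count of 5036 became 2212 with the replicate block, 2515 with the covariate, and 3227 to 6544 when 1 library was left out. The 3227 came without the N2 library of batch 8, 3364 without that of batch 6. The sign of spe-44 turned to -0.0093 with RLE scaling, -0.0014 with no filter, -0.010 with the replicate block and -0.0185 with DESeq2, and lay between -0.057 and 0.0665 without 1 library. For spe-9 it turned to -0.18 with the covariate. The cause was not tested. Lines over the midpoint gave 16 genes with the replicate block against 6 without it, 4 to 8 without 1 library, and none of the 9 in any alternative run. Batches of the lines gave 4 of the 9 genes with the covariate against 8, over 9308 and 12736 genes. Without the lines of 1 batch they gave 6 to 9 of the 9, over 11417 to 12730 genes. The median correlation of pairs with spe-44, 0.0262, was -0.121 by Spearman, -0.0773 without the 2 farthest lines and -0.241 without QX501, QX505 and QX571. The order along component 2 had a rank correlation of 0.5 in the parental libraries, and of 0.286 over the 8 genes other than spe-44. Depth limits spe-38, with at most 42 counts in a line.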
